A study of Oryza sativa with 4 samples.

Results

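Transcript levels are described here for 5 rice genes of phytate synthesis and phosphorus loading of the grain, out of 31453 genes listed in the deposited expression tables. They were taken by locus number: RINO1 (LOC_Os03g09250), LPA1 (LOC_Os02g57400), IPK1 (LOC_Os04g56580), MRP5 (LOC_Os03g04920) and SPDT (LOC_Os06g05160). All 5 loci are listed in grain and in root. Poly(A) RNA was sequenced from 4 groups of 1 library each: developing grain of the cultivar Sharbati, developing grain of the cultivar Lalat, roots of Sharbati and roots of Lalat. The labels give 24.88 ppm of grain iron for Sharbati and 7.80 ppm for Lalat. All plants grew in pots of soil and manure in a net house, with no treatment named, and were sampled 15 days after panicle emergence. Whether an RNA sample pools several plants is not stated. With no replicate in any group, the spread between plants is unknown, no test was made, and each difference is one between 2 libraries.

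Phytate, inositol carrying a phosphate on each carbon, is the main store of phosphorus in cereal grain, where it lies in globoids of the aleurone and the embryo. It binds iron, zinc and other metal ions, so that it also sets how much of the grain's iron can be absorbed from food. Its carbon ring is made from glucose 6-phosphate by inositol 3-phosphate synthase, kinases add phosphates step by step, and a transporter moves the product into the vacuole. Phosphorus for this store reaches the panicle through the vascular nodes of the stem, which were not sampled here.

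RINO1 encodes inositol 3-phosphate synthase, which makes the first inositol compound of the route. It lies on chromosome 3 between positions 4825615 and 4829747 in the coordinates of the deposited tables; no source used here names their build. LPA1 encodes a protein related to 2-phosphoglycerate kinase (chromosome 2, positions 35170410 to 35175254); rice mutants with low grain phytate carry lesions in it, although its biochemical step is not settled. IPK1 encodes the pentakisphosphate 2-kinase that adds the last phosphate (chromosome 4, positions 33735142 to 33739411). MRP5 encodes a transporter of the multidrug resistance-associated family that loads phytate into the vacuole (chromosome 3, positions 2367848 to 2374516). SPDT is described as a sulfate transporter, and in rice this protein sends phosphorus towards the grain from the nodes (chromosome 6, positions 2292594 to 2298805). The deposited descriptions name the enzyme for RINO1 and IPK1, and only a protein family for LPA1, MRP5 and SPDT.

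The precision of the values differs between the libraries, since 1 sequenced fragment is worth more FPKM (fragments per kilobase, scaled to the mapped fragments of the library) in a shallow library. Among genes taken as having a single fragment, that fragment stood for a median of 0.0302 FPKM in Sharbati grain, 0.0402 FPKM in Lalat grain, 1.07 in Sharbati root and 0.105 in Lalat root. In Sharbati root the value of 1 fragment ran from 0.223 to 7.14 FPKM between the 5th and 95th percentile of these genes. Since FPKM is per kilobase, 1 fragment is also worth more in a shorter transcript. Of 9 glutelin and oleosin genes, which mark the grain, 4 are listed in the grain tables, where they summed to 4979 FPKM in Sharbati (3 above 0, with GluA2 listed at 0) and 21987 FPKM in Lalat (4 above 0, with GluA2 alone at 12212 FPKM). GluA1 and the GluB genes of this list are not listed in grain, so the grain sums are incomplete. Whether the 0 for GluA2 in Sharbati grain is a measured absence is not stated. All 9 are listed in root, with 46.6 FPKM in Sharbati (7 above 0) and 1753 FPKM in Lalat (9 above 0). The 5 root markers summed to 293 FPKM in Sharbati root and 138 FPKM in Lalat root, with RCc3 listed at 0 in Sharbati root, and to 0.509 FPKM in Sharbati grain and 0.784 FPKM in Lalat grain over the 3 listed there. Of 4 green tissue markers, 4 were above 0 in each grain library, with sums of 23.3 FPKM in Sharbati grain and 15.5 FPKM in Lalat grain, and the sums in root were 15.6 FPKM for Sharbati and 6.75 FPKM for Lalat.

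In both grain libraries the first and the last enzyme of the route were the most abundant of the 5 genes, and the transporters had the lowest levels. RINO1 stood at 139 FPKM in Sharbati grain, 112 FPKM in Lalat grain, 40.6 in Sharbati root and 83.4 in Lalat root. It was the highest of the 5 genes in every library, and above 98.3% of the genes detected in Sharbati grain and 98.0% of those in Lalat grain. IPK1 stood at 72.2 FPKM in Sharbati grain, 73.2 in Lalat grain, 7.56 in Sharbati root and 33.4 in Lalat root. IPK1 was therefore next to RINO1 in both grain libraries, and the lowest of the 5 genes in Sharbati root.

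LPA1 varied least, at 18.9 FPKM in Sharbati grain, 20.4 in Lalat grain, 27.6 in Sharbati root and 54.2 in Lalat root. Its highest library was 2.87-fold above its lowest. MRP5, the vacuolar loader, stood at 3.45 FPKM in Sharbati grain, 3.39 in Lalat grain, 14.4 in Sharbati root and 44.7 in Lalat root. In grain it lay above 71.1% of the genes detected in Sharbati and 65.5% of those in Lalat. As deposited, both root libraries lay above both grain libraries for LPA1 and for MRP5; for LPA1 this ended when totals were made equal without the 100 highest genes of each library.

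SPDT had the widest range, 61.7-fold between its highest and lowest library. It stood at 0.223 FPKM in Sharbati grain, 1.29 in Lalat grain, 11.4 in Sharbati root and 13.8 in Lalat root. In Sharbati grain it lay above only 36.3% of the genes detected, and its level there was 7.40 times the median value of 1 fragment. The order of the libraries is as deposited: under that scaling 1 of the 5 genes, MRP5, had the same order, and for RINO1 and MRP5 the highest library was the same.

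**Figure D1:**
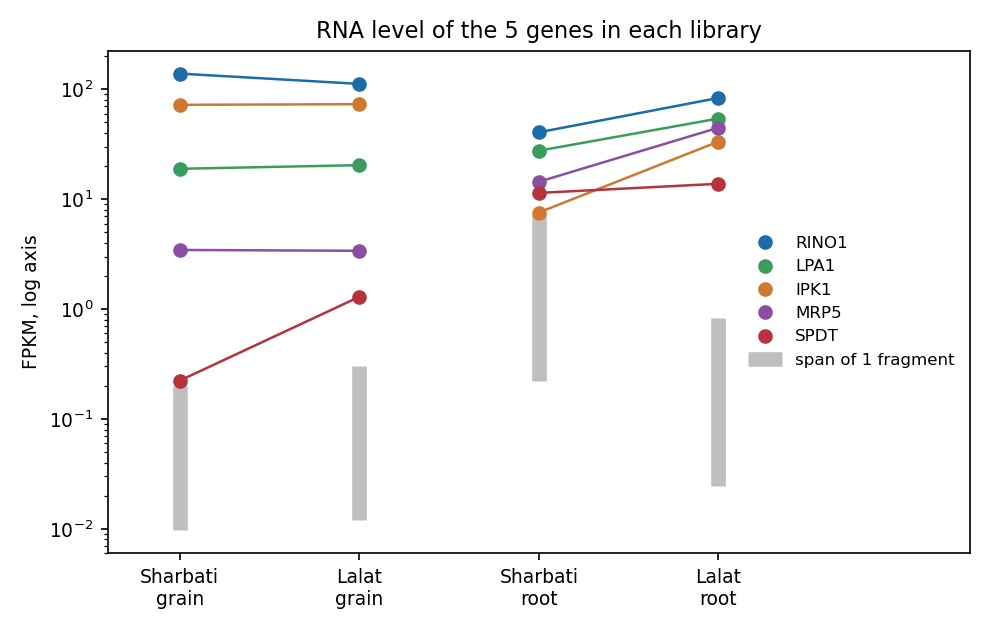
FPKM of the 5 genes in the 4 libraries on a log axis, each point 1 library and lines joining the 2 cultivars within an organ; grey bars span the 5th to 95th percentile of the FPKM that 1 fragment stood for. The lines run nearly level in grain for all genes but SPDT, and in Sharbati root IPK1 at 7.56 FPKM sits just above the bar.

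The balance among the 5 genes can be read within a library, where it does not depend on how libraries are scaled. RINO1 made up 59.5% of the 5 genes' FPKM sum in Sharbati grain and 53.3% in Lalat grain. In root it took 40.0% for Sharbati and 36.4% for Lalat. IPK1 took 30.9% in the Sharbati and 34.8% in the Lalat grain library, and 7.45% in the Sharbati and 14.6% in the Lalat root library. The transporters went the other way.

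MRP5 made up 1.47% of the sum in the Sharbati and 1.61% in the Lalat grain library, and 14.1% in the Sharbati and 19.5% in the Lalat root library. SPDT made up 0.0954% in the Sharbati and 0.612% in the Lalat grain library, and 11.2% in the Sharbati and 6.01% in the Lalat root library. Put as a ratio, the kinase IPK1 stood 20.9-fold above the phytate transporter MRP5 in Sharbati grain and 21.6-fold above it in Lalat grain. In root the same ratio was 0.526 for Sharbati and 0.748 for Lalat, so that MRP5 was the higher of the pair. RINO1 exceeded LPA1 7.38-fold in Sharbati grain and 5.48-fold in Lalat grain, and 1.47-fold in Sharbati root and 1.54-fold in Lalat root.

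**Figure D2:**
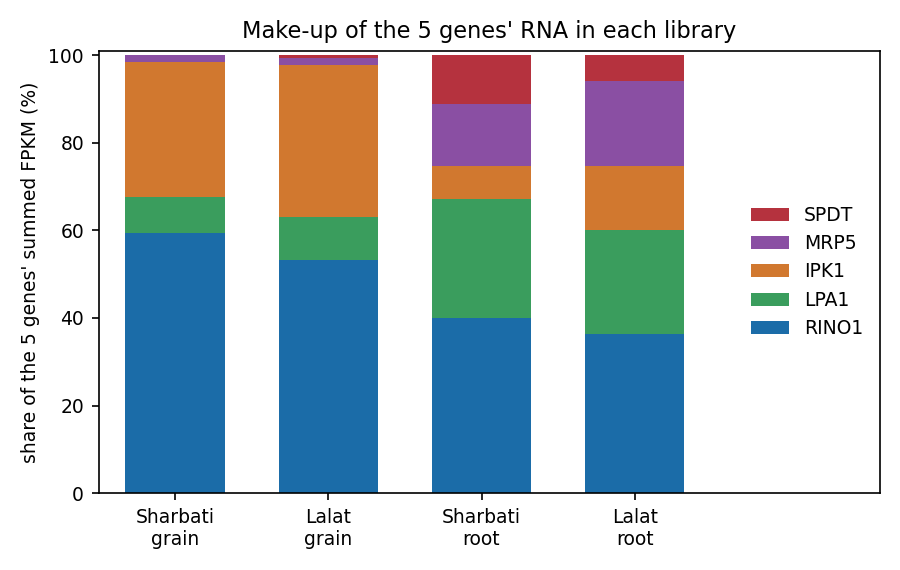
Share of each of the 5 genes in their summed FPKM, in percent, for the 4 libraries. RINO1 and IPK1 fill most of the grain bars, whereas LPA1, MRP5 and SPDT take a larger part of the root bars.

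The grain comparison asks whether the cultivar with more grain iron differs in the transcripts that make and store phytate. None of the 5 genes was 2-fold apart between Sharbati and Lalat grain on the scale used for all genes, log2((Sharbati + 1)/(Lalat + 1)) of FPKM. On that scale 6.31% of the 13417 genes compared were higher in Sharbati grain by 2-fold or more, 17.4% were lower by as much, and the median was -0.35. The 3 genes of synthesis had log2 ratios of 0.31 for RINO1, -0.11 for LPA1 and -0.02 for IPK1. MRP5 had 0.02, and its plain ratio was 1.02.

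SPDT differed most in grain. At 0.223 FPKM in Sharbati and 1.29 FPKM in Lalat its plain ratio was 0.174, that is 5.76-fold lower in Sharbati grain, while the pseudocount of 1 FPKM brought the log2 ratio to -0.90; with a pseudocount of 0.1 it was -2.10 and past 2-fold. With the pseudocount of 1 FPKM its ratio lay above 21.4% of those of all genes compared. In the authors' deposited table SPDT had p = 0.00934 and was not called different. The other 4 genes had p-values between 0.629 (RINO1) and 0.977 (IPK1) in that table, and none was called, against 3.89% of the 28339 genes listed for grain.

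In root, where phosphate is taken up and inositol is used in wall and signalling compounds, all 5 genes were lower in the Sharbati library as deposited. IPK1 had a log2 ratio of -2.01 (4.42-fold lower), MRP5 one of -1.57 (3.11-fold lower) and RINO1 one of -1.02 (2.05-fold lower). LPA1 followed at -0.95 and SPDT at -0.25. The count of 3 of 5 at least 2-fold lower stands beside 46.7% of all 13653 genes compared, and 0 of 5 were at least 2-fold higher beside 5.51%.

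The median ratio of all genes compared in root was itself at -0.92, an offset that the deposited values carry. Scaling the pair by the median ratio turned the background to 17.2% of genes higher and 21.2% lower. On that scale RINO1 was at -0.04, LPA1 at 0.02, MRP5 at -0.62 and SPDT at 0.69, and IPK1 alone remained past 2-fold, at -1.09. IPK1's ratio lay above 17.1% of those of all genes compared, and SPDT's above 73.9%. At 7.56 FPKM IPK1 in Sharbati root was 7.07 times the median value of 1 fragment, and just above the 95th percentile of 1 fragment, 7.14 FPKM. These values are taken over transcripts of all lengths, and the value of 1 fragment for IPK1 itself was not worked out. The part of depth in its ratio was not tested. The authors' deposited table gave p = 0.0853 for IPK1 and p = 0.101 for MRP5, and called none of the 5 genes, against 1.14% of the 25225 genes listed for root.

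**Figure D3:**
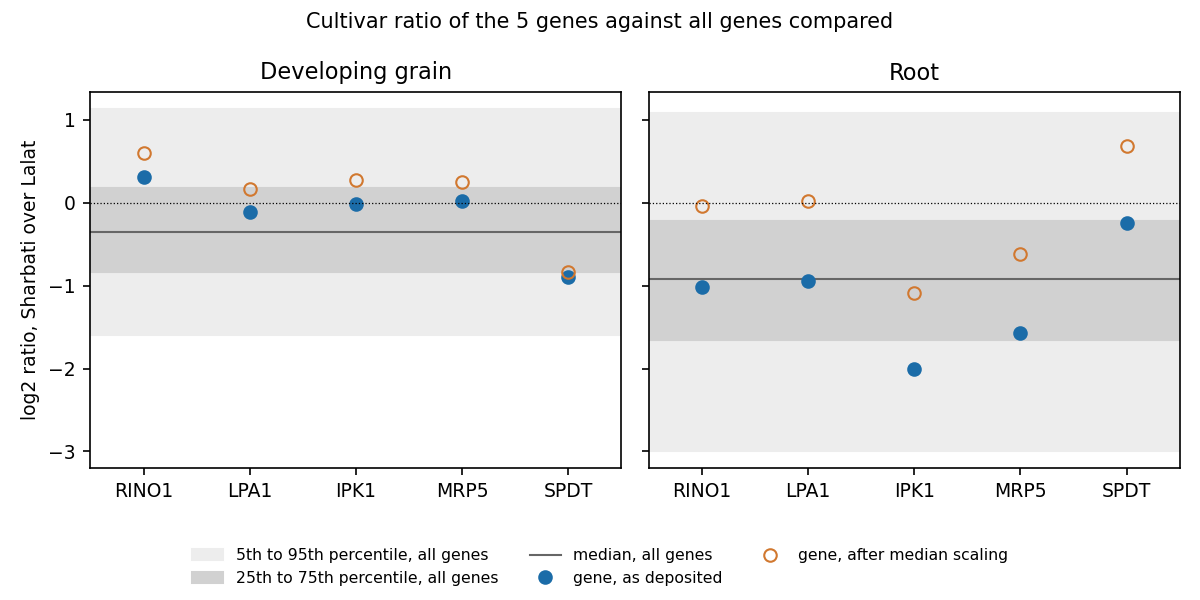
Log2 ratio of Sharbati over Lalat for the 5 genes in grain (left) and root (right), as deposited (filled) and after median scaling (open). The median used for scaling is that of genes reaching 1 FPKM in each library of the pair. Grey bands give the 5th to 95th and 25th to 75th percentiles of all genes compared and the line their median. Among the filled points, SPDT at -0.90 alone lies below the darker band in grain, and IPK1 at -2.01 alone does in root.

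Between organs, RINO1 and IPK1 were higher in grain and both transporters lower, in both cultivars. Grain and root were processed as separate pairs by the authors, so these ratios set levels from separately made tables side by side. IPK1 was higher in grain in both cultivars, with a log2 ratio of grain over root of 3.10 in Sharbati and 1.11 in Lalat. RINO1 was higher in grain by 1.75 in Sharbati (139 against 40.6 FPKM) and by 0.42 in Lalat (112 against 83.4 FPKM). Of all genes compared, 14.0% were at least 2-fold higher in grain in Sharbati and 7.11% in Lalat, and IPK1 lay above 97.4% and 93.5% of them in the same order.

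The transporters were lower in grain. SPDT had log2 ratios of -3.34 in Sharbati and -2.69 in Lalat, and MRP5 of -1.79 and -3.38 in the same order. LPA1 had -0.52 in Sharbati and -1.37 in Lalat; after median scaling these became -0.02 and -0.20. A level at least 2-fold lower in grain was common, at 51.0% of all genes in Sharbati and 59.7% in Lalat, beside 2 of the 5 genes in Sharbati and 3 of 5 in Lalat. After median scaling the shares of all genes were 20.0% higher and 43.3% lower in Sharbati and 17.6% higher and 37.6% lower in Lalat. Of the 5 genes 2 were higher and 2 lower in each cultivar. The offsets removed were -0.53 in Sharbati and -1.20 in Lalat. The medians over all genes compared were -1.04 and -1.30 in the same order. Scaling by these medians was not tried, so the scaled counts hold only for the offsets removed. In whole organs, a smaller share of the cells that use a gene and less RNA per cell cannot be told apart. Storage transcripts were found in root too: in Lalat root the glutelin GluD1 reached 0.812% of its grain level and the oleosins OLE16 and OLE18 reached 1.28% and 0.325%, beside 74.5% for RINO1 and 45.7% for IPK1. The part of such transcripts in the root values was not tested. In Sharbati root GluD1 and OLE16 were listed at 0 and OLE18 reached 6.70% of its grain level, beside 29.2% for RINO1 and 10.5% for IPK1.

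The rest of the route was followed in a list of 10 further genes of inositol and phytate synthesis. In grain 7 of them could be compared, with a median log2 ratio of 0.01. Of these 1 was higher in Sharbati by 2-fold or more, beside 6.31% of all genes, and 1 was lower by as much, beside 17.4%. The higher one was LOC_Os02g32370, listed as IPK2, whose deposited description is inositol hexaphosphate kinase. It stood at 98.7 FPKM in Sharbati grain and 34.4 FPKM in Lalat grain (log2 ratio 1.49). The lower one was LOC_Os10g42550, of the inositol 1,3,4-trisphosphate 5/6-kinases that phosphorylate intermediates of the route, at 7.05 FPKM in Sharbati and 15.1 FPKM in Lalat grain, close to the threshold.

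That kinase family had 1 dominant grain member. LOC_Os03g51610 stood at 110 FPKM in Sharbati grain and 63.2 FPKM in Lalat grain, near the level of IPK1. LOC_Os10g01480 followed at 20.0 FPKM in Sharbati grain and 30.8 FPKM in Lalat grain. It was listed at 0 in Sharbati root and stood at 8.59 FPKM in Lalat root. The other 4 members were at or below 7.05 FPKM in Sharbati and 15.1 FPKM in Lalat grain. LOC_Os02g26720 was instead a gene of the root, at 24.2 FPKM in Sharbati root and 42.3 FPKM in Lalat root and below 1 FPKM in both grain libraries. The second inositol 3-phosphate synthase locus, LOC_Os10g22450, stayed at 0.0312 FPKM in Sharbati grain, was listed at 0 in Lalat grain, and had 2.01 FPKM in Sharbati root and 0.599 FPKM in Lalat root. No source used here says how reads matching both synthase loci were counted, so the split between this locus and RINO1 is uncertain.

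In root, 9 of the 10 genes could be compared, 6 (66.7%) were at least 2-fold lower in Sharbati, beside 46.7% of all genes, and 0 were higher, beside 5.51%. Their median was -1.30 as deposited, against -0.92 for all genes. The lowest ratios belonged to 5/6-kinases: LOC_Os09g34300 stood at 1.66 FPKM in Sharbati root and 14.4 FPKM in Lalat root (log2 ratio -2.54), and LOC_Os03g12840 at 5.13 against 30.3 FPKM (-2.35). The myo-inositol kinase MIK (LOC_Os03g52760), described as a pfkB kinase, had 27.3 FPKM in Sharbati root and 29.7 FPKM in Lalat root. Inositol oxygenase (LOC_Os06g36560), which diverts inositol to wall sugars, stood at 138 FPKM in Sharbati grain and 56.2 FPKM in Lalat grain, and at 109 FPKM in Sharbati root and 433 FPKM in Lalat root. A wider list of 17 inositol enzymes chosen by description, which holds most of these genes again, had 3 of 12 higher and 3 of 12 lower in grain, and 0 of 14 higher and 9 of 14 lower in root. The shares over all genes were 6.31% higher and 17.4% lower in grain, and 5.51% higher and 46.7% lower in root. Among inositol monophosphatases, which free inositol from its phosphate, LOC_Os07g37220 was higher in Sharbati grain (6.04 against 1.42 FPKM) and LOC_Os02g07350 lower (1.80 against 7.93 FPKM), as was LOC_Os07g09330, named after its values were seen (log2 ratio -1.13).

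**Figure D4:**
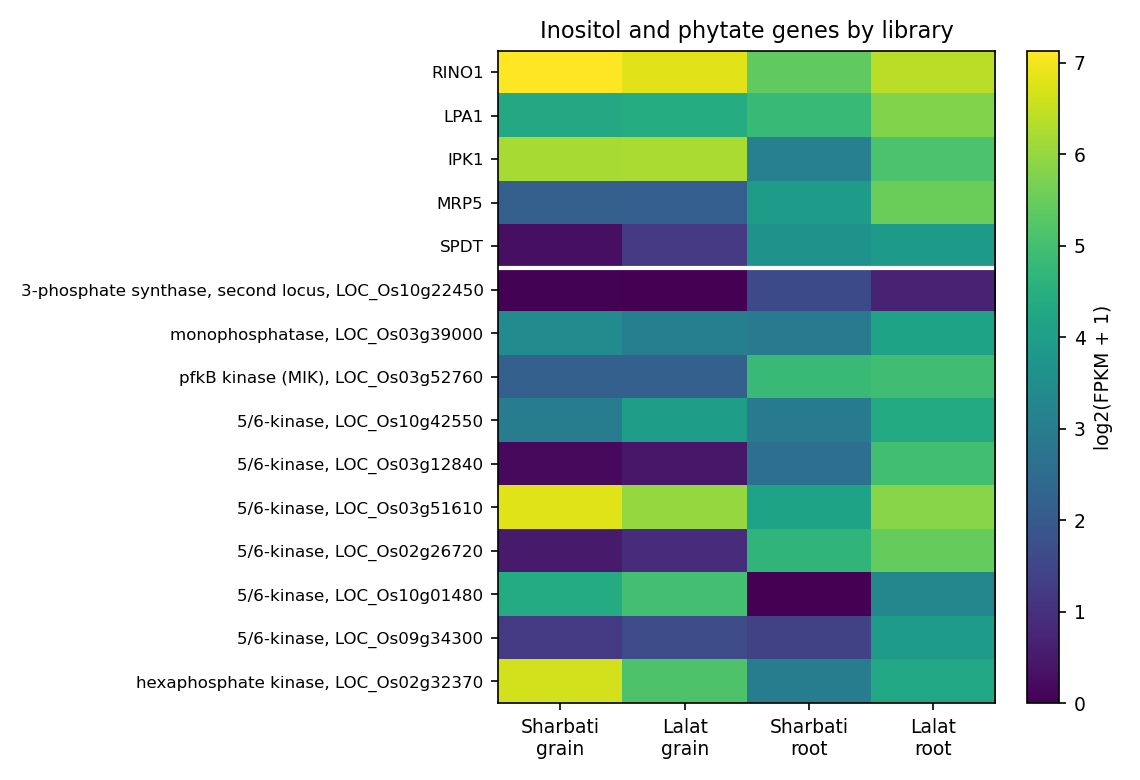
Levels of the 5 genes (above the white line) and of the 10 further inositol and phytate genes (below it) in the 4 libraries, as log2(FPKM + 1); rows are genes and columns libraries. RINO1, IPK1, the 5/6-kinase LOC_Os03g51610 and IPK2 (LOC_Os02g32370, labelled by its description as a hexaphosphate kinase) are the rows with the highest values in grain.

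Enzymes that break phytate and other phosphate esters down were low in grain. Of 11 acid phosphatases and phytases chosen by description, 5 could be compared in grain and none was 2-fold apart (median -0.61). Of all genes compared in grain, 6.31% were higher and 17.4% lower by 2-fold or more. The histidine acid phosphatase LOC_Os03g48300, of a class that includes phytases, stood at 3.60 FPKM in Sharbati grain and 6.18 FPKM in Lalat grain. In root 2 of 4 were at least 2-fold lower in Sharbati, beside 46.7% of all genes. The purple acid phosphatase LOC_Os01g56880 was 1 of these 2, at 0.517 against 13.0 FPKM. The locus described simply as a phytase, LOC_Os04g24460, had 0.0341 FPKM in Sharbati grain and was listed at 0 in Lalat grain.

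Of the regulators of the phosphate response, 0 of 5 compared were 2-fold apart in grain (median 0.11), where 6.31% of all genes were higher and 17.4% lower. PHR2 (LOC_Os07g25710), the MYB factor that switches on phosphate starvation genes, stood at 24.5 FPKM in Sharbati grain and 22.7 FPKM in Lalat grain, and at 31.1 FPKM in Sharbati root and 34.8 FPKM in Lalat root. In root 3 of 6 were lower in Sharbati by 2-fold or more (median -1.35), a share near the 46.7% of all genes. SPX1 (LOC_Os06g40120), which restrains PHR2 when phosphate is ample, stood at 8.12 FPKM in Sharbati root and 65.4 FPKM in Lalat root, and SPX5 (LOC_Os03g29250) at 1.19 against 26.0 FPKM. PHO2 (LOC_Os05g48390), a ubiquitin conjugase that limits phosphate transport, stood at 29.1 against 98.2 FPKM. The 4 genes described as SPX domain proteins are on this list too, with 0 of 3 apart in grain and 2 of 3 lower in root. SPX6 (LOC_Os07g42330) is in none of the tables used.

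In root, genes of phosphate transport went both ways: several were lower in Sharbati, some were higher and others differed little. PHO1;2 (LOC_Os02g56510), which exports phosphate to the xylem, stood at 9.13 FPKM in Sharbati root and 85.0 FPKM in Lalat root (log2 ratio -3.09). PT8 (LOC_Os10g30790) and PT2 (LOC_Os03g05640), both described as inorganic phosphate transporters, had log2 ratios of -0.17 and 0.11. The inorganic phosphate transporter gene LOC_Os03g05620 stood at 11.9 FPKM in Sharbati root and 66.6 FPKM in Lalat root (-2.39). Of the mitochondrial phosphate carriers, LOC_Os09g28160 stood at 2.24 against 33.2 FPKM (-3.40) and LOC_Os03g15690 at 3.05 against 13.2 FPKM (-1.81). A list of 12 genes of phosphate and sulfate transport held PHO1;2, PT8 and PT2 but not LOC_Os03g05620 or the mitochondrial carriers. Of its 7 genes compared in root, PHO1;2 alone was at least 2-fold lower. PT6 (LOC_Os08g45000, 3.66 FPKM in Sharbati root and 0.727 FPKM in Lalat root, named after its values were seen) was higher, and 0 of 3 were apart in grain. Among 20 phosphate transporters and carriers by description, 2 of 12 were higher and 5 of 12 lower in root, and 1 of 5 was higher and 1 of 5 lower in grain. The shares over all genes were 5.51% higher and 46.7% lower in root, and 6.31% higher and 17.4% lower in grain.

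SPDT was set against its own family, 13 further genes described as sulfate transporters. In grain 4 of them could be compared, 1 higher in Sharbati by 2-fold or more and 1 lower, beside 6.31% and 17.4% of all genes. LOC_Os01g41050 was the abundant family member there, at 85.1 FPKM in Sharbati grain and 29.3 FPKM in Lalat grain, against 0.465 FPKM in Sharbati root and 1.52 FPKM in Lalat root. The chloroplast transporter LOC_Os09g06499 stood at 3.33 FPKM in Sharbati grain and 20.3 FPKM in Lalat grain (log2 ratio -2.30), with p = 8.76e-05 in the authors' deposited table, which called it different. In both root libraries SPDT was the highest of the family, at 11.4 FPKM in Sharbati and 13.8 FPKM in Lalat. LOC_Os09g06499 came next at 9.60 and 8.31 FPKM. In Sharbati root 1 fragment stood for a median of 1.07 FPKM, so the order of SPDT and LOC_Os09g06499 there is uncertain. In root 3 of 9 family members were at least 2-fold lower in Sharbati and 0 higher, beside 46.7% and 5.51% of all genes.

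Over all lists, 34 of 74 distinct genes could be compared in grain, of which 5 (14.7%) were higher in Sharbati by 2-fold or more and 5 (14.7%) were lower by as much, beside 6.31% and 17.4% of all genes. In root the counts were 2 (4.17%) higher and 22 (45.8%) lower of 48, near the 5.51% and 46.7% of all genes; after median scaling they were 8 and 10. The authors' deposited table called 3 of the 74 genes in grain and 0 in root, beside 3.89% and 1.14% of all genes listed. Besides LOC_Os09g06499 these were LOC_Os04g10690, an inorganic phosphate transporter at 2.10 FPKM in Sharbati and 0.249 FPKM in Lalat grain, and the SPX-MFS protein gene LOC_Os02g45520 at 0.0679 FPKM in Sharbati and 0.722 FPKM in Lalat grain. Both were named after their values were seen, and the authors' deposited table gives them p = 0.00227 and p = 0.00134 in the same order.

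Unannotated transcripts assembled by the authors overlapped 2 of the 5 loci. At SPDT, a shorter transcript covered the low-coordinate part of the locus, from 2292595 to 2295425 in Sharbati grain and from 2292595 to 2295436 in Lalat root. It covered 45.6% and 45.8% of the locus in the same order, and its best match was a probable sulfate transporter 3.4. The level was 0.247 FPKM in Sharbati grain, beside 0.223 FPKM for the annotated locus, and 17.1 FPKM in Lalat root, beside 13.8 FPKM. No such transcript was listed for Lalat grain or Sharbati root.

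At LPA1, a transcript of nearly the whole locus was listed at 8.02 FPKM in Sharbati grain, 2.77 FPKM in Sharbati root and 23.5 FPKM in Lalat root, and none in Lalat grain. The annotated locus stood at 18.9, 27.6 and 54.2 FPKM in the same 3 libraries. An overlapping transcript was no rarity, since 15.6% of the genes detected in Sharbati grain, 16.3% in Lalat grain, 8.62% in Sharbati root and 19.2% in Lalat root had one. No source used here says how fragments were divided between annotated and unannotated transcripts.

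**Figure D5:**
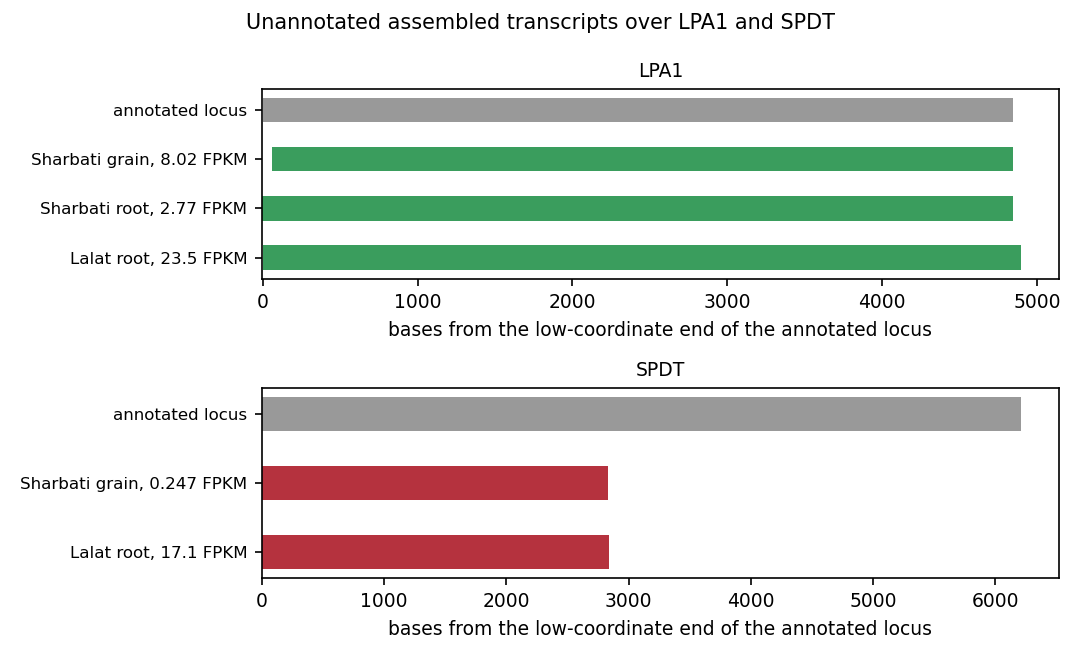
Extent of the unannotated transcripts over LPA1 (top) and SPDT (bottom), in bases from the low-coordinate end of the annotated locus (grey), with the library and FPKM of each. The SPDT transcripts end at nearly the same base in Sharbati grain and Lalat root; the locus runs on to 6212 bases.

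For each gene the most similar profiles were sought among 16070 genes with a named product, by the distance of log2(FPKM + 1) over the 4 libraries. LPA1 had the closest neighbour, a RAN GTPase-activating protein (LOC_Os05g46560) at a distance of 0.05, with 19.0 FPKM in Sharbati grain, 20.1 in Lalat grain, 28.4 in Sharbati root and 55.3 in Lalat root. Next came LOC_Os01g47490 (Lg106, 0.16) and the U2 ribonucleoprotein A gene LOC_Os02g13990 (0.24). RINO1 was nearest to LOC_Os03g58530 (ES43 protein, 0.53), a WD-40 repeat gene (LOC_Os06g07540, 0.54) and a ribosomal protein gene of the S13p/S18e type (LOC_Os07g07770, 0.59).

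IPK1 lay nearest to a 2-aminoethanethiol dioxygenase gene (LOC_Os05g51470, 0.34), an aminotransferase gene (LOC_Os02g14110, 0.43) and a ras-related gene (LOC_Os07g33850, 0.53). MRP5 was closest to an OTU-like cysteine protease gene (LOC_Os04g32970, 0.27), a zinc finger gene (LOC_Os12g18120, 0.32) and a receptor kinase gene (LOC_Os08g07760, 0.32). SPDT was nearest to a lumenal PsbP gene (LOC_Os01g70820, 0.24), a homeobox leucine zipper gene (LOC_Os02g35770, 0.24) and a RING-H2 finger gene (LOC_Os02g46600, 0.26). With 4 libraries such a distance describes these values and no more.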

How the data were processed

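Expression values are FPKM as deposited by the authors; beside them, the deposited files hold a p-value from the authors' own test of Sharbati and Lalat in each organ, a yes or no call, and a log ratio headed as natural logarithm. That ratio, whose unit is neither a fold nor a count, is the log2 of Lalat over Sharbati FPKM within 0.001 for 21847 of 21852 grain genes and 14090 of 14099 root genes above 0 in both libraries, and was not used further. Per the submitters' processing notes, TopHat 1.3.3 and Bowtie 0.12.9 were used with Cufflinks 1.3.0 and Cuffdiff, and the series' design text gives a false discovery rate of 0.05 for calls and leaves genes with very low read counts out of the tests. Grain and root tables are separate comparisons. No source used here names the genome build, and total reads per library were not used, so depth was read only from the smallest FPKM steps: 1 fragment was taken for genes with the other library at 0 and a deposited p-value of 0.159. Genes at the next common p-value in grain, 0.0786, had medians of 0.0566 FPKM in Sharbati and 0.0777 FPKM in Lalat. In each root library 0 genes had that p-value with the other library at 0. The reading of 1 fragment in root therefore has no such second step beside it.

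Distinct transcript values of a gene were summed. Ratios are log2 of FPKM with a pseudocount of 1, which understates the change of low genes; genes above 0 in both libraries and at 1 FPKM or more in at least 1 were compared, and all 5 genes passed in each comparison. Library pairs were also scaled by a median ratio, taken over the genes that reached 1 FPKM in each library of the pair. It differs from the median of all genes compared, since that set is wider. Code was tested on simulated data. Python 3.11.15, pandas 2.3.3, numpy 2.4.6 and matplotlib 3.10.9 were used.

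The genes, lists and rules were chosen with earlier results of these data known. Names beyond the deposited descriptions follow the usual locus assignments. From each list and organ up to 4 genes with the largest ratio among genes at 5 FPKM or more were eligible for naming, and for each of the 5 genes the 3 nearest profiles; other genes are named, after their values were seen, to give a role or account for a count. From the list of breakdown enzymes 3 lipid phosphatases were left out. The sheets of unannotated transcripts were assigned to libraries by their headings.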

Additional observations from a re-analysis of the deposited data

Results flagged for a closer look

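Among the 5 genes and those eligible for naming by the rule above, 25 had a ratio in both organs. Of these, 13 had a ratio of Sharbati over Lalat of opposite sign in grain and in root. Among all 9959 genes with both ratios the share was 36.7%. Genes named only for other reasons were not counted. These differences between the organs were not tested, and the root ratios carry the median offset of -0.92. Apart from the 5 genes, those counted were picked for the largest ratios of their lists in these same data. Their share is therefore not like for like with that of all genes. Ratios near 0, such as 0.02 for MRP5 in grain, were counted by sign too. RINO1 had a log2 ratio of 0.31 in grain and -1.02 in root, a difference of 1.33, and MRP5 had 0.02 and -1.57, a difference of 1.59. Also higher in Sharbati grain and lower in Sharbati root were IPK2 (LOC_Os02g32370, difference 2.80), the 5/6-kinase LOC_Os03g51610 (2.51) and inositol oxygenase LOC_Os06g36560 (3.26). The same held for the sulfate transporter LOC_Os01g41050 (2.29) and the mitochondrial phosphate carriers LOC_Os02g52860 (1.09) and LOC_Os03g15690 (2.44). SPX1 (3.27), PHR2 (0.26) and the SPX-MFS protein gene LOC_Os06g03860 (0.94) did so too. The phosphate carrier LOC_Os06g10810 (difference -1.59) and the chloroplast sulfate transporter LOC_Os09g06499 (-2.48) went the other way.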

How the results depend on the processing

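No paired analysis was possible because each group has 1 library, and no library could be left out. Of 128 ratios of the 5 genes recomputed under other settings, 118 kept their side of the 2-fold threshold and their sign where they were past it. Part of the 118 was fixed in advance. Changing the filter or setting absent genes to 0 cannot alter a listed gene's own ratio. Taking only the highest transcript value of a gene also left every ratio as it was. In grain SPDT passed 2-fold with a pseudocount of 0.1, which made the count of lower genes 1 in place of 0. In root the count of 3 lower genes became 1 after median-ratio scaling, after libraries were brought to equal totals with the 100 highest genes left out, and at a 4-fold threshold; the second scaling put RINO1 at 0.01 in place of -1.02. With a pseudocount of 5 RINO1 was at -0.95. In Lalat, grain over root, both scalings gave 2 higher genes in place of 1, and the second put LPA1 at 0.02 in place of -1.37. Scaling without the 100 highest genes left the library order of 1 of 5 genes and the highest library of 2 of 5 as deposited. Over the pathway lists in grain, the 5 higher and 5 lower genes became 0 and 1 at 4-fold, and 3 were lower after median scaling. In root, the 2 higher and 22 lower genes became 0 and 8 at 4-fold and 8 and 10 after median scaling, and 0 were higher with a filter of 5 FPKM. Scaling shifts every ratio of a comparison by 1 constant apart from the pseudocount; which scale is right was not tested. Depth limits Sharbati root most, where 1 fragment stood for a median of 1.07 FPKM.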
